A study of Homo sapiens with 16 samples.

Results

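The respiratory chain and ATP synthase subunit genes were followed in 3 human lines of T-cell acute lymphoblastic leukaemia in which a long non-coding RNA, lnrCXCR4, had been targeted. Members were chosen by symbol: names beginning MT-ND, MT-CO, MT-CYB or MT-ATP for the mitochondrial set, and the NDUF, SDH, UQCR, COX and ATP5 families for the nuclear set. This gave 103 of 57820 listed rows, 13 mitochondrial and 90 nuclear, after 80 pseudogene rows were left out. The mitochondrial set held 7 genes of complex I, 1 of complex III, 3 of complex IV and 2 of complex V. The nuclear set held 38 rows of complex I, 5 of complex II, 9 of complex III, 19 of complex IV and 19 of complex V. NDUFA4, NDUFA4L2 and COX7A2L were counted with complex IV. ATP5S, ATP5SL and the read-through ATP5J2-PTCD1 match the names but are not subunits, and they stayed in because the choice was by name.

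The 16 libraries form 5 experiments, each with its own control. In the guide experiments, CUTLL1, KOPTK1 and HPB-ALL cells were infected with lentivirus that carried CRISPR components against the RNA (2 libraries per line), against a non-targeting guide (1 library in CUTLL1, 1 in KOPTK1 and 2 in HPB-ALL). In the ASO experiments, CUTLL1 and KOPTK1 cells received an antisense oligonucleotide at 1 uM (2 libraries per line), against a scrambled one (1 library per line). Targeted libraries are numbered as guides or ASOs 1 and 2 and also as replicates, and no label says that they were grown separately. A p-value here therefore reflects how far these libraries scatter, and that scatter may be purely technical. The level of lnrCXCR4 itself was not analysed here, so no targeted library was checked by its target.

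Respiration is built from 2 genomes. Complexes I, III, IV and V combine membrane subunits encoded in mitochondrial DNA with subunits encoded in the nucleus, made in the cytosol and imported, whereas complex II is wholly nuclear. Electrons enter at complex I from NADH or at complex II from succinate, pass through complex III and cytochrome c to oxygen at complex IV, and the proton gradient drives ATP synthase, complex V. The mitochondrial genes are transcribed as long polycistronic RNAs from both strands and cut into single messages, so their levels depend on DNA copy number, transcription and RNA decay within the organelle.

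Several facts of the libraries bear on every result below. The values are deposited normalised read counts, and 34547469 to 72178929 reads per library were recovered from them. The mean chi-square per gene between 2 libraries, where 1 is counting noise alone, was 2.49 to 6.75 for 5 of the 6 pairs of replicates and 168 to 737 for the 92 pairs that differed in line or arm. CUTLL1 ASO 1 was left out of these pairs by choice, since the factor that divided its reads was too near 1. Between guide and ASO libraries of the same line and arm it was 2.29 to 14.5 over 8 pairs, so these libraries lay about as close as replicates, and like results with guides and with ASOs are given side by side and not as independent support. The T-lineage genes CD3D, CD3E, CD7 and LCK were detected in all 16 libraries. Their list of 10 summed to 96060 to 137900 in targeted libraries and 170400 to 224400 in controls, and its part in the results was not tested. The 4 B-lineage markers summed to 125 to 405 in targeted libraries and 322 to 2008 in controls, nearly all of it CD79A, while MS4A1 did not exceed 0.952. Myeloid sums stayed at or below 36.7 and erythroid sums at or below 14.3. The 3 epithelial and fibroblast markers summed to 19.2 to 426 in targeted libraries and 11.7 to 41 in controls. Among them EPCAM was at 0 in all 10 targeted libraries and at most 5.22 in controls, while COL1A1 was above its control in every targeted library and stood at 426 in KOPTK1 guide 1. KRT8 was lower in HPB-ALL guide libraries, at 16.8 and 17.7, against 39.6 and 38.1 in controls. In the other lines KRT8 did not exceed 3.45. Without KOPTK1 guide 1, 13 mitochondrial genes were called higher with guides, and 26 nuclear members higher and 25 lower. The part of these markers in the results was not tested. In bulk RNA, fewer cells of a type and less RNA per cell cannot be told apart.

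Of the nuclear rows, 12 had a mean under 20 and were not tested. COX4I2, COX6A2, COX7A1 and COX7B2, which are isoforms known from lung, muscle or testis, were at 0 in all 16 libraries, and so were the second rows of NDUFB8 and UQCR11. The other 6 did not exceed 12.3 normalised counts. The remaining 91 members, 13 mitochondrial and 78 nuclear, passed the filter and were tested with limma over all genes, with a threshold of an adjusted p under 0.05.

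Promoter sequences are shown for members with results given below, because nuclear respiratory genes are known for shared promoter motifs. RefSeq windows on GRCh38.p14, from 250 bases before to 50 after the annotated start, were found for 69 of 86 distinct nuclear symbols. Windows were searched on both strands for GCGCANGCG, a core of the site of the factor NRF1, for CCGGAAG, an ETS site of the kind bound by GABP, and for AANATGGCG, the core of the YY1 site. Matches of different motifs overlapped in 0 of the 69 windows. GCGCANGCG was in 30.4% of the nuclear members' windows and in 8.05% of all 27305 windows, CCGGAAG in 27.5% and 10.7%, and AANATGGCG in 23.2% and 3.37%.

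By direction with guides, GCGCANGCG was in 27.3% of the windows of members that fell and 21.7% of those that rose. It was in 45% of those of tested members that did neither. For CCGGAAG these shares were 22.7%, 26.1% and 40%. The AANATGGCG match was in 9 of the 22 windows of members that fell with guides (40.9%). It was in 2 of the 23 of members that rose (8.7%) and in 5 of the 20 of tested members that did neither (25%). These shares describe letters in a window and were given no test. In 8 of the 9 the match lay 8 to 27 bases after the start, on the gene's strand in all but NDUFS1, where it reads on the opposite strand and is shown as its reverse complement. Whether the ATG of the others is also the start codon was not examined. The windows of 30 bases around each match, on the gene's strand and with the match in capitals, are shown first for the members that fell and last for COX6A1 and UQCRC1, which rose.
NDUFA9, chr12:4649114-4649143, plus strand: attgtgggaaAAGATGGCGgctgccgcaca
NDUFS1, chr2:206159410-206159439, minus strand: tagccgaggcCGCCATATTgaataagcgac
NDUFS3, chr11:47579079-47579108, plus strand: gcatctgagtAACATGGCGgcggcggcggt
NDUFS4, chr5:53560650-53560679, plus strand: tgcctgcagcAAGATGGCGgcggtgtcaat
NDUFS6, chr5:1801405-1801434, plus strand: ccagcggcgcAAAATGGCGgcggcgatgac
NDUFS7, chr19:1383914-1383943, plus strand: ggccgaggccAAGATGGCGgtgctgtcagg
NDUFS8, chr11:68030491-68030520, plus strand: tccccaaaccAACATGGCGgccccctacaa
SDHB, chr1:17054003-17054032, minus strand: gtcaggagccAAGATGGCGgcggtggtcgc
UQCR10, chr22:29767386-29767415, plus strand: actgtgaagaAACATGGCGgccgcgacgtt
COX6A1, chr12:120438114-120438143, plus strand: gtccagatcaAAAATGGCGgtagttggtgt
UQCRC1, chr3:48609604-48609633, minus strand: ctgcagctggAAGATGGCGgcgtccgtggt

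SDHA, a complex II member that rose, had 4 matches to GCGCANGCG in the 180 bases before its start, spaced by 49 bases each. They are in capitals in the window shown here.
SDHA, chr5:218140-218319, plus strand: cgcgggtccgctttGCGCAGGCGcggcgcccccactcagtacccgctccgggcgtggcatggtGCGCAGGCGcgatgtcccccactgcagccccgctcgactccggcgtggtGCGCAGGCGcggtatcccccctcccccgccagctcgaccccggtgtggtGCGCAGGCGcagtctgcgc

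The first question was whether the 2 genomes' subunits moved together when the RNA was targeted. All 13 mitochondrial genes rose with guides and all 13 rose with ASOs. The nuclear genes split, with 28 higher and 25 lower of 78 with guides and 27 higher and 23 lower with ASOs. The background was wide: of all genes tested, 32.7% were called higher and 35% lower with guides (14069 genes), and 31.8% higher and 33.2% lower with ASOs (13712 genes). The nuclear shares, 35.9% higher and 32.1% lower with guides and 34.6% and 29.5% with ASOs, were near that background. The median log2 fold change was 0.31 over the mitochondrial set and 0.002 over the nuclear set with guides, beside -0.03 over all genes tested. With ASOs the same medians were 0.32, 0.04 and -0.01. In a fit chosen after seeing the data, guide and ASO libraries were averaged so that each line and arm counted once. This fit, which pools guides and ASOs, called 13 mitochondrial genes higher, and 12 nuclear members higher and 14 lower. The shares of all genes that it called were not counted, so these counts are not read as particular to the members. Of the genes named below as called with guides, the pooled fit did not call SDHC (adjusted p = 0.0884), NDUFA2 (0.0724), NDUFB5 (0.0867) or COX7A2 (0.0836). Nor did it call COX7A2L (0.106), UQCRH (0.196), TEFM (0.277) or COQ6 (0.059).

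**Figure D1:**
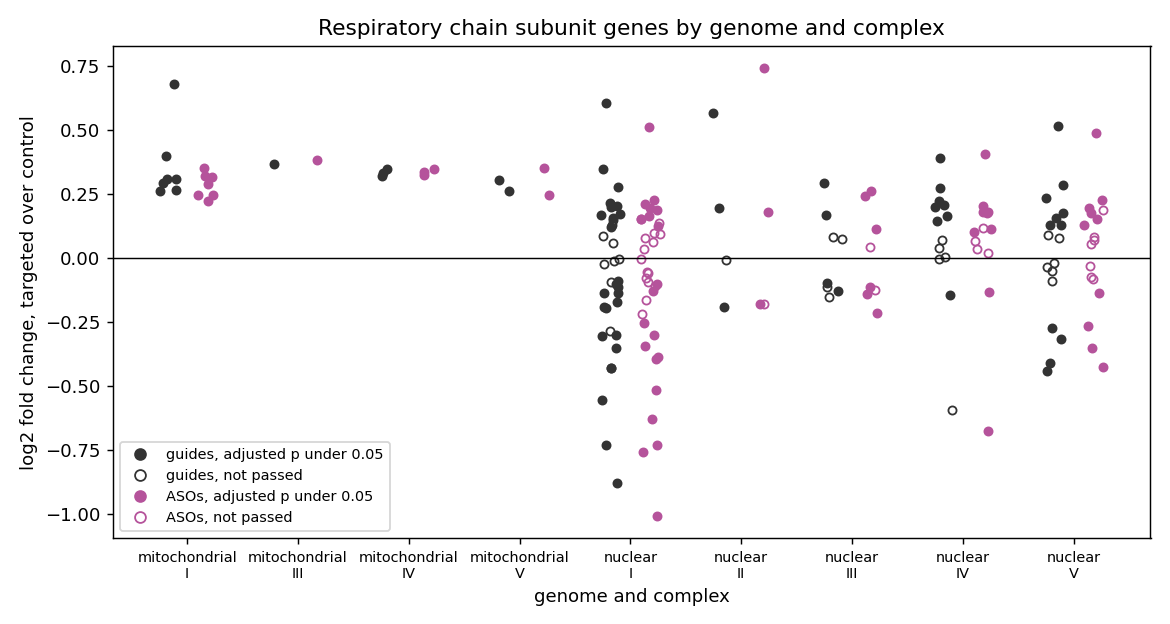
Log2 fold change of targeted over control libraries (vertical axis) for the tested members shown, grouped by genome and complex (horizontal axis), with guides in black and ASOs in purple. Filled points passed an adjusted p under 0.05. The mitochondrial genes all lie above 0, while nuclear genes shown spread from -0.88 to 0.61 with guides and from -1.01 to 0.74 with ASOs.

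As a share of all normalised counts, the mitochondrial set held 2.21% and 2.18% in CUTLL1 guide libraries, against 1.96% in their control. It held 2.99% and 2.74% in KOPTK1 guide libraries, against 2.30% in the control, and 2.24% and 2.21% in HPB-ALL guide libraries, against 1.68% in each of 2 controls. With ASOs it held 2.18% and 2.24% in CUTLL1, against 1.92%, and 2.96% and 2.83% in KOPTK1, against 2.25%. In each of the 5 experiments every targeted library was above its control or controls. The nuclear set held 1.08% to 1.15% in the 10 targeted libraries and 1.04% to 1.16% in the 6 controls, so these ranges overlapped. The mean share in targeted libraries over that in controls was 1.12 for CUTLL1 guides, 1.25 for KOPTK1 guides and 1.32 for HPB-ALL guides in the mitochondrial set, and 0.955, 1.01 and 1.07 in the nuclear set. With ASOs it was 1.15 in CUTLL1 and 1.29 in KOPTK1 for the mitochondrial set, and 1.00 and 1.01 for the nuclear set.

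**Figure D2:**
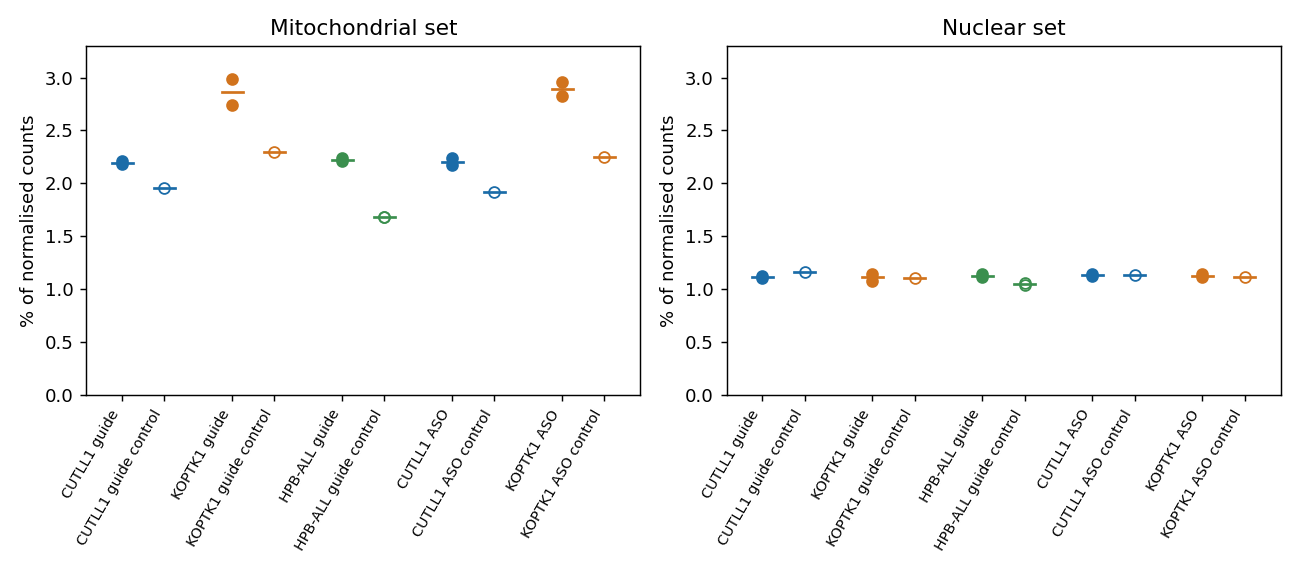
Share of all normalised counts (vertical axis, percent) held by the mitochondrial set (left panel) and the nuclear set (right panel) in each library, with targeted libraries filled and their controls open to the right. Horizontal bars are group means. The mitochondrial share lies above its control in every experiment, and the nuclear share stays between 1.04% and 1.16%.

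Among the mitochondrial genes, MT-ND1 to MT-ND6 and MT-ND4L encode the membrane arm of complex I that pumps protons. MT-ND5, at the far end of that arm, had 88147 and 87103 normalised counts in CUTLL1 guide libraries, against 72054 in the control. It had 82019 and 77765 in KOPTK1 guide libraries, against 61327, and 58057 and 57547 in HPB-ALL guide libraries, against 41401 and 41244. Every targeted library was above its own controls, and the log2 fold change was 0.40 (SE 0.04, adjusted p = 1.38e-05). With ASOs MT-ND5 had 87526 and 88442 in CUTLL1, against 70813, and 77871 and 79530 in KOPTK1, against 60160. These groups did not overlap within a line either, and the log2 fold change was 0.35 (SE 0.03, adjusted p = 0.000137).

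MT-ND6 is the 1 member transcribed from the light strand of mitochondrial DNA, and it had the largest fold change of the set with guides. It had 2097 and 2258 normalised counts in HPB-ALL guide libraries, against 920 and 1244 in controls. In CUTLL1 guide libraries it had 1937 and 2408, against 1627, and in KOPTK1 guide libraries 3525 and 3561, against 2617. The log2 fold change with guides was 0.68 (SE 0.13, adjusted p = 0.00119), and its SE was the largest of the 13, with the fewest counts of the 13 and a gap between the HPB-ALL controls. With ASOs it was 0.25 (SE 0.07, adjusted p = 0.0158), and without the CUTLL1 ASO control it was 0.19 and not called (adjusted p = 0.0865). The use of strand in counting is not given in the sources used here, so reads of MT-ND6 and of the opposite strand cannot be told apart.

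MT-CYB encodes cytochrome b, the mitochondrial subunit of complex III. It had 112496 and 110214 normalised counts in HPB-ALL guide libraries, against 82378 and 81142 in controls. Its log2 fold change was 0.37 with guides (SE 0.04, adjusted p = 2.34e-05) and 0.38 with ASOs (SE 0.04, adjusted p = 0.00021), and every targeted library was above its control. MT-CO1, MT-CO2 and MT-CO3 encode the catalytic core of cytochrome c oxidase. Their log2 fold changes were 0.32, 0.35 and 0.33 with guides and 0.34, 0.35 and 0.33 with ASOs. MT-CO1 had 217029 and 209730 normalised counts in HPB-ALL guide libraries, against 164575 and 162420 in controls. MT-ATP6 and MT-ATP8, the mitochondrial subunits of ATP synthase, gave 0.31 and 0.26 with guides and 0.25 and 0.35 with ASOs.

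The remaining complex I genes lay close together. MT-ND1, MT-ND2, MT-ND3, MT-ND4 and MT-ND4L had log2 fold changes of 0.31, 0.27, 0.26, 0.31 and 0.29 with guides, and of 0.32, 0.22, 0.25, 0.32 and 0.29 with ASOs. MT-ND2 was the weakest in CUTLL1, with 39631 and 39445 normalised counts in guide libraries, against 37857, a log2 fold change of 0.06 that was not called (adjusted p = 0.408). The ASO calls of MT-ND2 and MT-ATP6 rested on single libraries: without the KOPTK1 ASO control their log2 fold changes were 0.09 (adjusted p = 0.208) and 0.11 (adjusted p = 0.0876). The call of MT-ND2 with ASOs was also lost without CUTLL1 ASO 2 (adjusted p = 0.0657), KOPTK1 ASO 1 (adjusted p = 0.0577) or KOPTK1 ASO 2 (adjusted p = 0.0636).

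**Figure D3:**
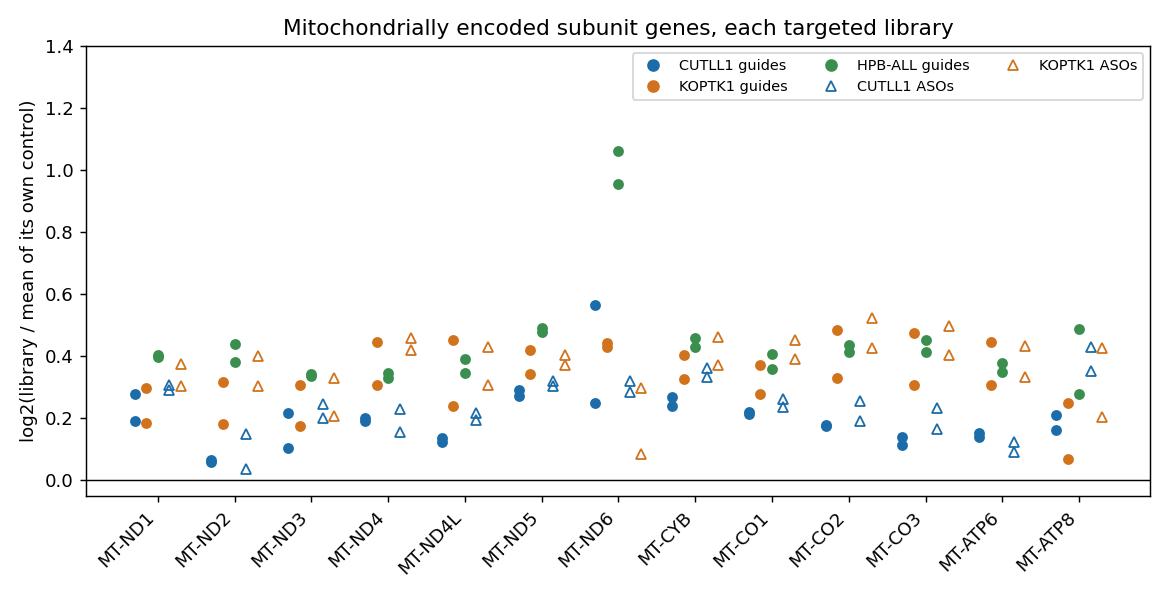
Log2 ratio of each targeted library to the mean of its own control (vertical axis) for the 13 mitochondrial genes (horizontal axis), coloured by cell line, with guides as filled circles and ASOs as open triangles. All points lie above 0, and the 2 HPB-ALL guide libraries stand highest for MT-ND6.

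The rise was present in every line. With guides, 9 of the 13 mitochondrial genes were called higher in CUTLL1, 12 in KOPTK1 and 13 in HPB-ALL, beside 30.8%, 31% and 34% of all genes in those experiments. With ASOs, 10 were called higher in CUTLL1 and 12 in KOPTK1, beside 30.5% and 30.6%. None was called lower in any experiment, and all 13 had a fold change above 0 in all 5, but under quantile scaling 1 was called lower in CUTLL1 with guides and 2 in CUTLL1 with ASOs. MT-ND1, MT-ND3, MT-ND4, MT-ND5, MT-CYB, MT-CO1 and MT-CO2 were called higher in all 5. The guide fold was largest in HPB-ALL for 11 of the 13 genes and smallest in CUTLL1 for 12. Among the 78 tested nuclear members it was largest in HPB-ALL for 49 and smallest in CUTLL1 for 43. These counts, and those of genes called in all 5 experiments, were not made over all genes. The mitochondrial genes are cut from shared RNAs, so the 13 are not separate observations. The median log2 fold change of the set was 0.19 in CUTLL1, 0.37 in KOPTK1 and 0.40 in HPB-ALL with guides, and 0.22 in CUTLL1 and 0.38 in KOPTK1 with ASOs.

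The scaling of the libraries moved these sizes. Under quantile scaling the median over all genes was 0.07 with guides, a shift of about 0.1 from the main value of -0.03, and the mitochondrial median was then 0.22 with guides and 0.15 with ASOs. Under it MT-ND4, MT-CO2 and MT-CO3 were not called with guides, MT-ND2, MT-ND4, MT-CO2 and MT-ATP6 were not called with ASOs, and MT-CO3 turned to -0.04 with ASOs. The mitochondrial ribosomal RNAs, which are no members, rose as well. MT-RNR2 had 118398 and 121023 normalised counts in HPB-ALL guide libraries, against 63478 and 63602, and its log2 fold change was 0.73 with guides (SE 0.06, adjusted p = 4.63e-06) and 0.56 with ASOs (SE 0.04, adjusted p = 6.95e-05). MT-RNR1, the small ribosomal RNA, had 9725 and 11406 normalised counts in HPB-ALL guide libraries, against 5878 and 5963. Its replicates lay further apart in CUTLL1 guide libraries, at 10856 and 18436, against 8524. The same held in KOPTK1 ASO libraries, at 20600 and 30417, against 18222. The log2 fold change of MT-RNR1 was 0.68 with guides (SE 0.14, adjusted p = 0.00174) and 0.50 with ASOs (SE 0.14, adjusted p = 0.019). That ASO call was lost without the CUTLL1 ASO control (0.46, adjusted p = 0.0852) or the KOPTK1 ASO control (0.54, adjusted p = 0.0513).

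Nuclear complex I was the largest group, and its members went in both directions. With guides 10 of 36 tested rows rose and 17 fell, with a median log2 fold change of -0.09, and with ASOs 9 rose and 13 fell. The core subunits hold the flavin and iron-sulfur clusters, and accessory subunits surround them. The core subunits NDUFS1, NDUFS3, NDUFS7, NDUFS8 and NDUFV1 fell with guides, with log2 fold changes of -0.10, -0.19, -0.11, -0.14 and -0.09. With ASOs NDUFS1 fell by 0.10 and NDUFS3 by 0.25, while NDUFS7, NDUFS8 and NDUFV1 were at 0.04, -0.06 and -0.005 and not called. NDUFV2, another core subunit, had only 36.1 to 71.1 normalised counts in the 16 libraries and was called in neither comparison. NDUFS4, an accessory subunit, fell by 0.17 with guides (adjusted p = 0.00905) and was at -0.09 with ASOs and not called (adjusted p = 0.279), and single libraries lay on both sides of their controls.

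Several accessory subunits also fell, most of them in the membrane arm. NDUFC1 had 830 and 788 normalised counts in HPB-ALL guide libraries, against 1459 and 1482, and 659 and 662 in KOPTK1 guide libraries, against 1435. Its log2 fold change was -0.88 with guides (SE 0.07, adjusted p = 3.3e-06) and -1.01 with ASOs (SE 0.12, adjusted p = 0.00038). NDUFB4 fell by 0.73 on the log2 scale with guides and by 0.73 with ASOs, and NDUFB10 by 0.55 and 0.63. NDUFB7 fell by 0.43 and 0.34, and NDUFA9, an accessory subunit near the quinone site, by 0.43 and 0.39. All of these had every targeted library below its control.

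Against these, NDUFV3, a small accessory subunit of the NADH-binding module, rose. It had 1842 and 1864 normalised counts in CUTLL1 guide libraries, against 1264, 1315 and 1436 in KOPTK1, against 939, while HPB-ALL had 1868 and 1694, against 1090 and 1124. The groups did not overlap within any line, and the log2 fold change was 0.61 with guides (SE 0.05, adjusted p = 4.69e-06) and 0.51 with ASOs (SE 0.06, adjusted p = 0.000488). NDUFA2, an accessory subunit of the same module, rose by 0.35 with guides (SE 0.10, adjusted p = 0.0106), and with ASOs by 0.21. NDUFB5, of the membrane arm, rose by 0.20 with guides (SE 0.05, adjusted p = 0.00839), and with ASOs by 0.13, where the call was lost without CUTLL1 ASO 1 (adjusted p = 0.0504).
NDUFA7 (ENSG00000267855) had only 22.3 to 56.4 normalised counts. Its log2 fold change was -0.002 with guides (adjusted p = 0.994) and -0.76 with ASOs (adjusted p = 0.0286), and the ASO call was lost without CUTLL1 ASO 1 (adjusted p = 0.0759), CUTLL1 ASO 2 (adjusted p = 0.052), KOPTK1 ASO 2 (adjusted p = 0.0593) or either ASO control (adjusted p = 0.0794 and 0.074).

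Complex II, succinate dehydrogenase, is the 1 complex with no mitochondrial gene, and its 4 subunits did not move together. SDHA, the flavoprotein that oxidises succinate, had 8970 and 8839 normalised counts in CUTLL1 guide libraries, against 5502 in the control. KOPTK1 had 10742 and 10075, against 6613, and HPB-ALL had 11212 and 10518, against 8123 and 8086. All targeted libraries were above their controls, and the log2 fold change was 0.57 with guides (SE 0.05, adjusted p = 8.53e-06) and 0.74 with ASOs (SE 0.04, adjusted p = 1.42e-05). SDHA has near-identical pseudogene copies that could share its reads, so its level is uncertain.

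SDHB, the iron-sulfur subunit that takes electrons from SDHA, fell. It had 4994 and 5124 normalised counts in CUTLL1 guide libraries, against 6135, and 5419 and 5404 in HPB-ALL, against 6121 and 6005. Its log2 fold change was -0.19 with guides (SE 0.03, adjusted p = 0.000632) and -0.18 with ASOs (SE 0.04, adjusted p = 0.0101), with every targeted library below its control. SDHC, a membrane anchor, rose by 0.20 with guides (SE 0.06, adjusted p = 0.017; 0.0884 with each line and arm counted once), and with ASOs by 0.18 (SE 0.05, adjusted p = 0.0144), and the ASO call was lost without the CUTLL1 ASO control (0.12, adjusted p = 0.067).
The other anchor, SDHD (ENSG00000204370), was not called in either comparison, at -0.01 with guides (adjusted p = 0.936) and -0.18 with ASOs (adjusted p = 0.0823). In KOPTK1 it had 2766 and 3054 normalised counts with guides, against 2482, a log2 fold change of 0.23 (adjusted p = 0.0324), and 2324 and 2559 with ASOs, against 3032, a log2 fold change of -0.31 (adjusted p = 0.00628). It was the only member with calls of opposite direction among the 5 experiments, and the difference between guides and ASOs was not called (0.26, adjusted p = 0.496).

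**Figure D4:**
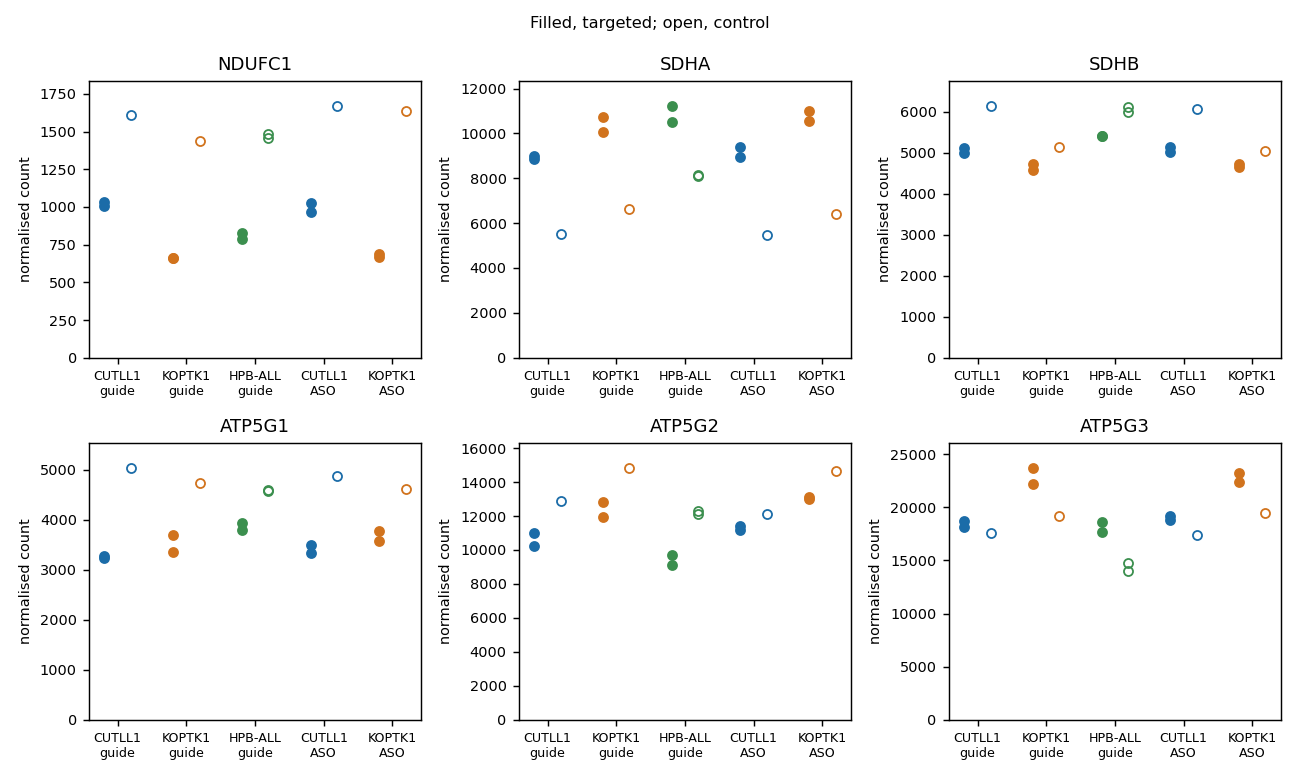
Normalised counts (vertical axes, from 0) of NDUFC1, SDHA, SDHB, ATP5G1, ATP5G2 and ATP5G3 in each library, grouped by line and agent, with targeted libraries filled and controls open to their right. NDUFC1, SDHB, ATP5G1 and ATP5G2 lie lower in targeted libraries of every experiment, and SDHA and ATP5G3 higher.

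In complex III, 2 of 8 tested rows rose and 2 fell with guides, and 3 rose and 3 fell with ASOs. UQCRQ, a small subunit bound to cytochrome b, had 7269 and 7071 normalised counts in HPB-ALL guide libraries, against 5090 and 5279. In CUTLL1 guide libraries it had 6553 and 6379, against 5904. UQCRQ rose by 0.30 with guides (SE 0.06, adjusted p = 0.00165) and 0.26 with ASOs (SE 0.03, adjusted p = 0.000447). UQCRC1, a core protein on the matrix side, rose by 0.17 with guides and by 0.24 with ASOs. UQCR10 fell by 0.13 and 0.14. UQCRH, the hinge subunit, was at -0.10 with guides, just past the threshold (adjusted p = 0.0471). That call was lost in 8 of 10 fits without 1 library, with adjusted p from 0.0565 to 0.138, and with ASOs UQCRH was at -0.12 and not called (adjusted p = 0.116).

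In complex IV, 7 of 13 tested nuclear rows rose and 1, COX5A, fell with guides, with a median log2 fold change of 0.15. With ASOs 7 rose and 2, COX5A and NDUFA4L2, fell. The ubiquitous isoform COX6A1 had 6500 and 5874 normalised counts in KOPTK1 guide libraries, against 4647, and 4695 and 4337 in HPB-ALL, against 3338 and 3099. In CUTLL1 guide libraries it had 3992 and 3819, against 3355. It rose by 0.39 with guides (SE 0.06, adjusted p = 0.000194), and with ASOs by 0.41 (SE 0.08, adjusted p = 0.00446), while its muscle isoform COX6A2 was at 0 throughout. COX6C rose by 0.28 and 0.18, and COX7B by 0.22 and 0.18.

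Other isoform groups of complex IV were uneven. COX4I1, the general form of subunit 4, was at 0.01 with guides (adjusted p = 0.906) and 0.02 with ASOs (adjusted p = 0.652), and COX8A at 0.04 and 0.07, neither called. COX6B1 was at 0.07 with guides and not called (adjusted p = 0.219), and at 0.11 with ASOs (adjusted p = 0.0352). That ASO call was lost without CUTLL1 ASO 1, CUTLL1 ASO 2, KOPTK1 ASO 1 or the KOPTK1 ASO control, with adjusted p from 0.0635 to 0.122. COX7A2 rose by 0.20 with guides (adjusted p = 0.0109) and was at 0.12 with ASOs (adjusted p = 0.0768). COX7A2L, which takes part in joining complexes III and IV, rose by 0.15 with guides (adjusted p = 0.00433), and with ASOs by 0.10 (adjusted p = 0.027), where the call was lost without either CUTLL1 ASO library, the CUTLL1 ASO control or KOPTK1 ASO 2, with adjusted p from 0.0673 to 0.093.

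NDUFA4, a complex IV subunit despite its name, rose by 0.21 with guides (adjusted p = 0.00306), and with ASOs by 0.20 (adjusted p = 0.014), and the ASO call was lost without the CUTLL1 ASO control (adjusted p = 0.0635). Its paralogue NDUFA4L2, known as a hypoxia-induced gene, was low. It had 33.2 and 24.6 normalised counts in CUTLL1 guide libraries, against 98.5, and 28.3 and 32.2 in KOPTK1, against 55.2, but at most 0.952 in any HPB-ALL library. Its log2 fold change was -0.59 with guides (SE 0.38, adjusted p = 0.193) and -0.68 with ASOs (SE 0.21, adjusted p = 0.0296). The ASO call was lost without either CUTLL1 ASO library, the CUTLL1 ASO control or KOPTK1 ASO 2, with adjusted p from 0.0533 to 0.148.

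In complex V, 7 of 17 tested nuclear rows rose and 4 fell with guides, and 6 rose and 4 fell with ASOs. Of the 5 subunits of the catalytic F1 head, 2 rose and 1 fell in each comparison. ATP5D, the delta subunit of the central stalk, had 1819 and 1689 normalised counts in CUTLL1 guide libraries, against 2437, and 2378 and 2160 in HPB-ALL, against 2947 and 2993. It had a log2 fold change of -0.44 with guides (SE 0.04, adjusted p = 1.36e-05) and of -0.35 with ASOs (SE 0.04, adjusted p = 0.000285), whereas ATP5E, the epsilon subunit beside it, rose by 0.29 and 0.23. ATP5H, the d subunit of the peripheral stalk, rose by 0.52 with guides (SE 0.05, adjusted p = 1.29e-05), and with ASOs by 0.49, and ATP5F1, the b subunit of the same stalk, fell by 0.27 and 0.26.

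The c-ring, the rotor that protons turn, is made from 1 mature protein encoded by 3 genes, and these genes diverged. ATP5G1 had 3270 and 3244 normalised counts in CUTLL1 guide libraries, against 5034, and 3693 and 3355 in KOPTK1, against 4748. In HPB-ALL it had 3945 and 3793, against 4597 and 4575. It was lower in every targeted library, by 0.41 on the log2 scale with guides (SE 0.06, adjusted p = 0.000281), and with ASOs by 0.42 (SE 0.05, adjusted p = 0.000625). ATP5G2 had a log2 fold change of -0.31 with guides (SE 0.04, adjusted p = 8.08e-05) and of -0.14 with ASOs (SE 0.03, adjusted p = 0.00732). ATP5G3 went the other way, with 18590 and 17706 normalised counts in HPB-ALL guide libraries, against 14012 and 14727. In CUTLL1 guide libraries it was nearer its control, at 18711 and 18127, against 17607. ATP5G3 rose by 0.24 with guides (SE 0.05, adjusted p = 0.00194), and with ASOs by 0.18 (SE 0.04, adjusted p = 0.00472).

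Side by side over the nuclear set, 25 members were higher in both comparisons, 19 lower in both and none called in opposite directions, while 9 were called with guides only, 6 with ASOs only and 31, with the 12 untested rows among them, in neither. NDUFB5, NDUFV3, SDHA, UQCRC1, UQCRQ, COX6A1, COX6C, ATP5E and ATP5H were higher in all 5 experiments. NDUFA9, NDUFB4, NDUFB7, NDUFB8, NDUFB10, NDUFC1, NDUFS3, NDUFS6, SDHB, ATP5D, ATP5F1 and ATP5G1 were among those lower in all 5. The shares of all genes called alike in both comparisons or in all 5 experiments were not counted. These counts are therefore not read as particular to the set. By experiment, 14 nuclear members rose and 23 fell in CUTLL1 with guides, beside 30.8% and 31.5% of all genes. In KOPTK1 the guides gave 21 risers and 20 fallers (31% and 33.1% of all genes), and in HPB-ALL 34 risers and 23 fallers (34% and 36.9%). With ASOs 21 rose and 19 fell in CUTLL1 (30.5% and 31.8%), and 23 rose and 22 fell in KOPTK1 (30.6% and 32.8%). The CUTLL1 guide count of risers was 9 without CUTLL1 guide 1.

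The guide effect itself differed between lines for 6 mitochondrial and 25 nuclear members, 34.1% of those tested beside 43.7% of all genes in limma's F test. The mitochondrial count was 2 without CUTLL1 guide 1 or HPB-ALL guide 1, and 3 without CUTLL1 guide 2, HPB-ALL guide 2, either HPB-ALL control or either CUTLL1 ASO library. The 5 members with the smallest p were NDUFA2, NDUFB5, NDUFA6, NDUFB10 and UQCRQ.

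The direct test of guides minus ASOs in CUTLL1 and KOPTK1 called 0 of 91 members and 0% of all genes with limma. At an unadjusted p under 0.05 it held 6 members and 9.94% of all genes, and the smallest adjusted p among members was 0.496. The smallest p values belonged to NDUFB5 (0.14, SE 0.03), NDUFA7 (ENSG00000267855) (1.08, SE 0.30), NDUFA5 (0.25, SE 0.07), SDHD (ENSG00000204370) (0.26, SE 0.08) and ATP5G2 (-0.13, SE 0.05). A p that misses the threshold does not show that guides and ASOs act alike.

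The lines differed before any targeting. Between the control libraries of the 3 lines, all 13 mitochondrial and 69 of 78 nuclear members differed in limma's F test, 90.1% of members beside 91.5% of all genes. The mitochondrial set held its lowest share of counts in HPB-ALL, where 12 of 13 genes were called below KOPTK1 (39.4% of all genes), with a median log2 difference of -0.47. Against CUTLL1 the genes were mixed, with 8 of 13 called lower and 3 higher in HPB-ALL. Of all 14020 genes tested, 5459 were lower and 5436 higher in that contrast. By adjusted p the first member for HPB-ALL minus KOPTK1 was COX7A2L, with 2511 and 2448 normalised counts in HPB-ALL controls, 6056 and 6338 in KOPTK1 controls and 4360 and 4350 in CUTLL1 controls. HPB-ALL minus KOPTK1 was -1.32 for COX7A2L (SE 0.03, adjusted p = 9.17e-12). NDUFB10 and UQCRC1 were lower in HPB-ALL than in KOPTK1 by a log2 difference of -0.94 and -0.70, and MT-ND5 by -0.56. ATP5E set CUTLL1 apart, with 7449 and 7092 normalised counts in HPB-ALL, 7741 and 8154 in KOPTK1 and 13049 and 12316 in CUTLL1.

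**Figure D5:**
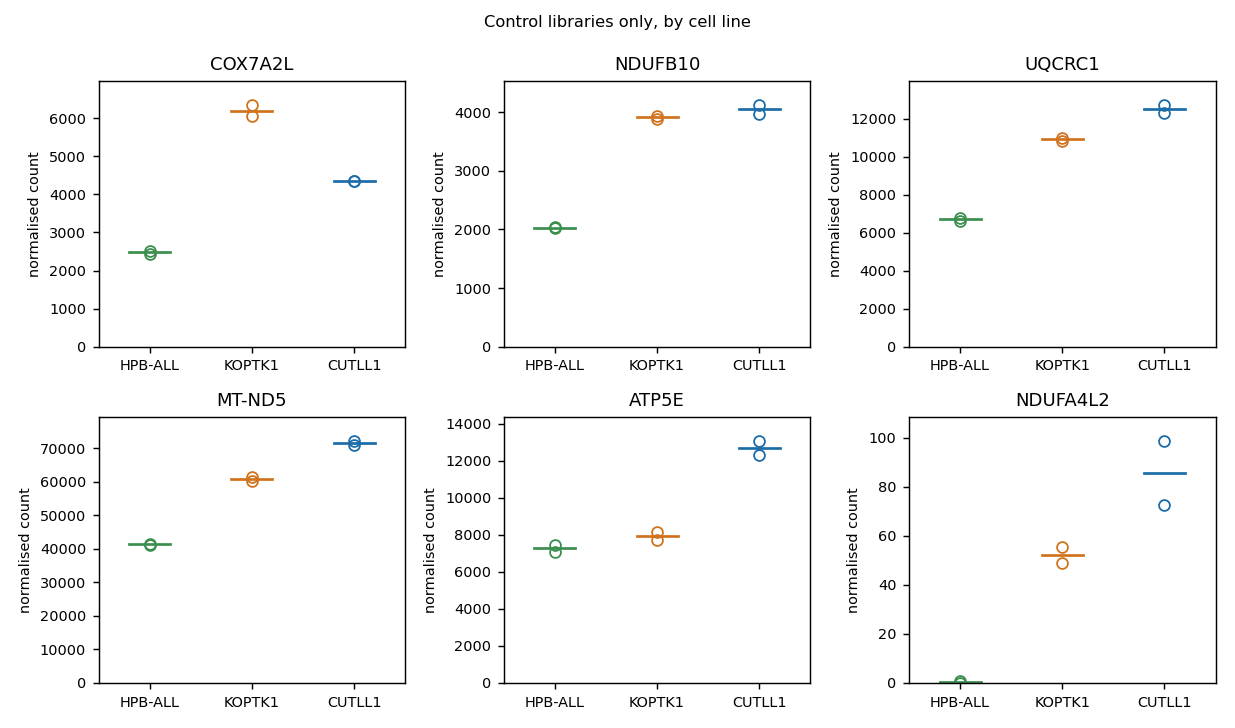
Normalised counts (vertical axes, from 0) in the 6 control libraries by line (horizontal axes), with bars at the mean of 2 libraries. HPB-ALL is lowest for COX7A2L, NDUFB10, UQCRC1 and MT-ND5, and NDUFA4L2 is at or below 0.952 there.

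Other genes of the pathway are given as counts, beside 32.7% higher and 35% lower of all genes tested with guides, and 31.8% and 33.2% with ASOs. Of 24 tested genes that make, cut and maintain mitochondrial RNA and DNA, 2 rose and 14 fell with guides, with a median log2 fold change of -0.25, and 1 rose and 16 fell with ASOs. POLG, the mitochondrial DNA polymerase, was the exception in size, with 19367 and 18619 normalised counts in HPB-ALL guide libraries, against 7404 and 6942. It rose by 1.15 with guides (SE 0.08, adjusted p = 1.30e-06), and with ASOs by 1.03. TEFM, an elongation factor of mitochondrial transcription, rose by 0.20 with guides (adjusted p = 0.0141; 0.277 with each line and arm counted once) and was at 0.01 with ASOs. C10orf2, the replicative helicase Twinkle, was at -1.12 with guides and -0.94 with ASOs, and fell in both. PNPT1 and SUPV3L1, which together degrade mitochondrial RNA, fell by 0.96 and 0.65 with guides and by 0.86 and 0.56 with ASOs.

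Of 41 tested assembly factors, 8 rose and 16 fell with guides and 9 rose and 15 fell with ASOs. Shares of fallers were near those of all genes (35% with guides and 33.2% with ASOs). Shares of risers were below those of all genes (32.7% with guides and 31.8% with ASOs). TTC19, SURF1 and ATPAF2, which help assemble complexes III, IV and V, rose by 0.61, 0.48 and 0.56 with guides. COA3 and COX10, both needed for complex IV, and BCS1L, which inserts the Rieske protein into complex III, fell by 1.16, 0.81 and 0.66 with guides. Of 15 tested carriers and other subunits, 5 rose and 4 fell with guides and 4 rose and 5 fell with ASOs. Among the coenzyme Q synthesis genes COQ2 and COQ10B rose by 0.48 and 0.49 with guides and COQ6 by 0.21, while COQ3 fell by 1.02. CYC1, cytochrome c1 of complex III, fell by 0.33, and NDUFAB1, the acyl carrier protein of complex I, by 0.19. The ASO call of COQ10B (0.21, adjusted p = 0.0288) was lost in several fits without 1 library, with adjusted p from 0.0584 to 0.0883.

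Among 8 tested nuclear regulators of respiratory genes, 1 rose and 5 fell with guides, and 1 rose and 6 fell with ASOs. NRF1, 1 of the factors whose sites were searched above, rose by 0.43 with guides (SE 0.05, adjusted p = 6.13e-05), and with ASOs by 0.40. YY1, another of these factors, was below its control in all 6 guide and all 4 ASO libraries, by a small amount. In KOPTK1 guide libraries YY1 had 11681 and 11851 normalised counts, against 12069. In HPB-ALL it had 11552 and 11370, against 13009 and 13200. The part of these regulators in the results was not tested. Of the GABP genes, GABPA was below its control in 4 guide and 4 ASO libraries, and GABPB1 above it in 4 and 4. MYC, a growth regulator, had 4477 and 4343 normalised counts in HPB-ALL guide libraries, against 24338 and 23602, and had a log2 fold change of -2.21 with guides (SE 0.13, adjusted p = 5.65e-07) and of -1.95 with ASOs. PPRC1, a coactivator related to PGC-1alpha, fell by 1.27 and 1.04, and ESRRA, a nuclear receptor of respiratory genes, by 0.74 and 0.54.

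In the citric acid cycle, which feeds electrons to complexes I and II, 7 of 14 genes rose and 4 fell in each comparison. OGDH and DLST, which carry the oxoglutarate dehydrogenase step, rose by 1.21 and 0.44 with guides, and their partner DLD by 0.27. IDH3B, IDH2 and MDH2, which each reduce a nicotinamide cofactor, fell by 0.48, 0.26 and 0.29. The ASO call of IDH2 (-0.15, adjusted p = 0.0179) was lost without either CUTLL1 ASO library or the CUTLL1 ASO control, with adjusted p from 0.0583 to 0.0774.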

How the data were processed

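RNA from 16 libraries was analysed from 1 deposited table, and its values are a signal: normalised read counts per gene. The authors' columns hold whole reads divided by 1 factor each: 100% of values were whole multiples of the column's smallest value, within 1e-06. Per the submitters' processing notes, STAR (1.4.2), DESeq2 and hg19 were used, without their roles. For the counter, annotation, filters and use of strand the sources used here name nothing, and genes with near-identical copies may share reads. Libraries were made with a strand-specific kit from column-purified RNA, per the labels' protocols.

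Tests used log2(normalised count + 1) in limma (3.58.1, R 4.3.3) with an intensity trend and Benjamini-Hochberg adjustment over all genes with a mean of 20 or more. The guide comparison used 10 libraries and the ASO comparison 6, each with cell line as a term. Single experiments and differences used 10 group means over 16 libraries, in which a lone control was assumed to vary like the rest. The added 1 makes folds of low genes too small. Alternatives included edgeR (4.0.16) and DESeq2 (1.42.0) on reads recovered for 15 libraries, leaving out CUTLL1 ASO 1, whose factor was too near 1. With guides the edgeR test called 4850 genes higher and 5195 lower. Tests were tested on simulated data.

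Named genes were all mitochondrial members and, of nuclear members, the 6 rising and 6 falling most in each comparison, the SDH genes, isoform groups, the 5 smallest p of each difference test, members with opposite calls, and up to 3 per direction of other lists; others are named as members of a count. Members, lists and tests were chosen with earlier results of these data known. Promoters came from RefSeq on GRCh38.p14, matched by symbol; no hg19 coordinates are given. Some genes are not reported here by name or plotted, though counts, shares and medians over all members hold them.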

Additional observations from a re-analysis of the deposited data

Results flagged for a closer look

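The effect of the guides differed between the 3 lines for 31 of 91 tested members in limma's F test (34.1%, 6 mitochondrial and 25 nuclear), beside 43.7% of all genes. The count of mitochondrial genes ran from 2 to 8 when 1 library was left out. The CUTLL1 and KOPTK1 guide controls are single libraries, whose spread was taken from the other groups.

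NDUFA2 stood first (F = 35.69, adjusted p = 0.00021). Its log2 fold change was 0.08 in CUTLL1, 0.14 in KOPTK1 and 0.66 in HPB-ALL, where it had 4881 and 4595 normalised counts in guide libraries, against 3042 and 2949 in controls. NDUFA6 (F = 25.2, adjusted p = 0.000676) was likewise higher in HPB-ALL alone among the called lines, at -0.06, 0.06 and 0.34. UQCRQ (F = 16.53, adjusted p = 0.00268) was called higher in each line, at 0.13, 0.20 and 0.47.

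NDUFB5 differed in another order (F = 29.89, adjusted p = 0.000383), with log2 fold changes of 0.11 in CUTLL1, 0.43 in KOPTK1 and 0.11 in HPB-ALL. In KOPTK1 it had 3855 and 3856 normalised counts in guide libraries, against 2869 in the guide control and 3302 in the ASO control. NDUFB10 (F = 23.74, adjusted p = 0.000831) fell in each line, by 0.67 in CUTLL1, 0.73 in KOPTK1 and 0.36 in HPB-ALL, the line whose controls already had the lowest counts of it.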

How the results depend on the processing

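Under the alternatives 656 counts and shares stayed within 1.5 times or 1 SD and 24 did not. Among the 656 are mitochondrial shares under median-of-ratios scaling, which cannot change a share. Others are single experiments refitted without a library outside them, where mainly the shared spread could change. Of named genes, 2401 values kept direction and side of the threshold, 94 lost the call, 11 gained one and 26 changed sign. The fit that pooled guides and ASOs, averaged per line and arm, called 12 nuclear members higher and 14 lower. The shares of all genes that it called were not counted. Quantile scaling left 8 mitochondrial genes higher with ASOs, 7 in KOPTK1 with ASOs, and called 1 lower in CUTLL1 with guides and 2 with ASOs. Without the filter on low values, which adds genes to the adjustment, 5 mitochondrial and 8 nuclear members were higher in CUTLL1 with guides, 13 nuclear in KOPTK1 with guides and 6 mitochondrial in CUTLL1 with ASOs, the guide effect differed between lines for 1 mitochondrial and 14 nuclear members, and guides minus ASOs called 1. The HPB-ALL mitochondrial share was 0.568 percentage points above control when taken over counts outside mitochondrial genes. Leaving out 1 library gave 9 to 14 nuclear risers in CUTLL1 with guides and 2 to 8 mitochondrial genes whose guide effect differed between lines. On recovered reads, which lack CUTLL1 ASO 1, edgeR did not make the ASO calls of MT-ND6, SDHC, COX6B1, COX7A2L, NDUFB5 and COQ10B. DESeq2 on these reads did not make the ASO calls of NDUFA7 (ENSG00000267855), NDUFA4L2, SDHC, COX7A2L, COQ10B and MT-RNR1. With guides edgeR did not call UQCRH.

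The replicate block, a fit with the guide or ASO number as a term, left 14 nuclear members lower with ASOs, and SDHB (adjusted p = 0.0585) and ATP5G2 (adjusted p = 0.0552) were among the ASO calls it did not make. The numbers did not pair the libraries, since the correlation of their deviations between groups was -0.0139 to 0.0655.

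Values near 0 changed sign. With guides NDUFA7 (ENSG00000267855) was 0.001941 with median-of-ratios scaling, 0.2683 with quantile scaling and -0.2628 to 0.1333 without 1 library. SDHD (ENSG00000204370) was 0.0268 with quantile scaling, 0.007427 with edgeR on recovered reads and -0.1003 to 0.03285 without 1 library. COX4I1 was -0.005002 with quantile scaling and -0.01765 to 0.04743 without 1 library, and COX8A -8.915e-05 to 0.06618 without 1 library. With ASOs MT-CO3 was -0.03661 and COX4I1 -0.02104 with quantile scaling, COX4I1 -0.003205 to 0.04183 and TEFM -0.03908 to 0.05639 without 1 library. The cause was not tested. NDUFV2, NDUFA7 and NDUFA4L2 had few counts, and the part of depth was not tested.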
